A study of Mus musculus with 2 samples.

Results

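The Lyve1-low Trem2 Ms4a7 macrophages were the C1q-positive cells of injured mouse muscle that carried Trem2 or Ms4a7 RNA and RNA of at most 1 of 4 resident macrophage genes. Members were chosen by detected UMIs: a cell was a member if at least 2 of C1qa, C1qb and C1qc were detected (a value above 0), if Trem2, Ms4a7 or both were detected, and if at most 1 of Lyve1, Folr2, Cd163 and Cbr2 was detected. Pdgfra (FAPs), Cdh5 (endothelium), Cd3e (T cells) and Cd79a (B cells) had to be at 0. The rule found 734 of the 13432 cells, 317 from the library labelled WT and 417 from that labelled KO.

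The study injured the gastrocnemius muscle with cardiotoxin (CTX), a snake venom toxin that kills muscle fibers, by injecting 50 µL at 10 µM, and captured the digested muscle with a 10x 5′ kit. It addressed how loss of GSDME, a pore-forming protein of the gasdermin family, alters muscle repair. Both groups were CTX-injured male mice on C57BL/6J. The library labelled WT held wild-type cells, and that labelled KO cells of mice lacking Gsdme in the whole body, bred as littermates from heterozygous parents. The muscle came from day 14 after CTX. The methods give 5 mice per genotype, and whether they were pooled and their age are not given in the sources used here. There was 1 library per genotype and so no replicate: no test between genotypes could be made, no p value is given, and genotype and library cannot be told apart. All intervals below are 95% intervals that cover counting error only, and UMIs may not be independent of the cell they came from.

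Skeletal muscle holds resident macrophages, many of which carry the hyaluronan receptor LYVE1 and sit along vessels, and after injury it receives blood monocytes that become macrophages in the tissue. TREM2 is a receptor for lipids and cell debris that signals through the adaptor TYROBP, and macrophages that take up dead cells and lipid switch on a program with Apoe, Gpnmb, Spp1, Fabp5 and lysosomal genes. Recruited macrophages are also a main source of IL-1β, TNF and the chemokines that call in further leukocytes.

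The libraries held 6354 cells (WT) and 7078 cells (KO), with 4 barcodes in common. Gsdme RNA did not separate them: the members of the library labelled WT held 12 Gsdme UMIs (5.61 CPM, UMIs of the gene per 1000000 UMIs of the group, 2.90 to 9.80) and those of the library labelled KO 10 (3.85 CPM, 1.85 to 7.07), and over all cells the levels were 5.03 and 4.65 CPM. Whether the counted reads cover the deleted part of Gsdme was not checked, so the direction of every comparison rests on the labels. Members held a median of 6171 UMIs (449 to 30442) in WT and 5795 (516 to 23146) in KO, 2139123 and 2599829 UMIs in all. Scrublet called 1 and 3 of them doublets.

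Macrophage genes that the rule did not read were present in members of both libraries. Adgre1 (F4/80) stood at 474.0 (WT) and 593.1 (KO) CPM, the CSF-1 receptor gene Csf1r at 630.6 and 748.5 CPM, Cd68 at 578.7 and 613.9 CPM, and Cd14, the lipopolysaccharide co-receptor, at 2446 and 2197 CPM. Pdgfra-positive cells held 1.26 and 1.10 CPM of Adgre1. The chemokine genes Ccl3 (535.7 and 671.2 CPM) and Ccl4 (1268 and 1374 CPM) and the inflammasome sensor Nlrp3 (404.8 and 473.1 CPM) were likewise present in both libraries. The rule itself set the levels of Trem2, at 549.3 and 633.5 CPM, and of Ms4a7, a tetraspan membrane protein of macrophages, at 770.9 and 923.1 CPM, which are given as a description.

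**Figure D1:**
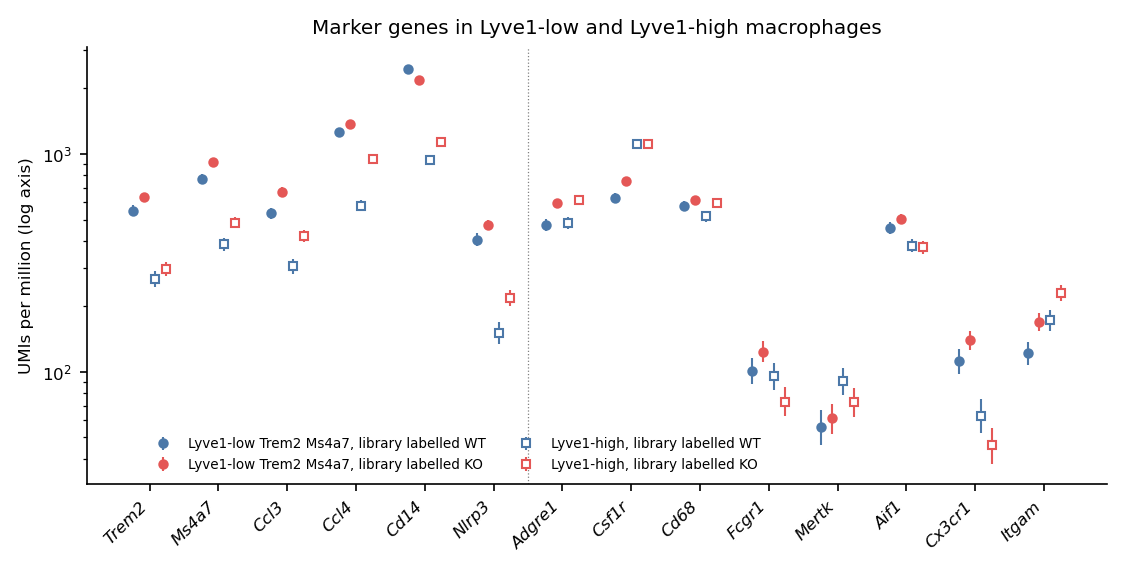
Levels of 14 marker genes in CPM (log axis) in Lyve1-low Trem2 Ms4a7 macrophages (filled circles) and Lyve1-high macrophages (open squares) of each library, with exact Poisson intervals of 95% that cover counting error only. The 6 genes left of the dotted line name the cells, and Trem2 and Ms4a7 were used to choose them; the genes to the right mark macrophages in general, and Csf1r was higher in the Lyve1-high cells of both libraries.

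Members made up 4.99% of all cells of the library labelled WT (4.47 to 5.55) and 5.89% of those of the library labelled KO (5.35 to 6.47), a difference of 0.903 percentage points (0.123 to 1.68). Among the macrophages, meaning all cells that met the C1q and lineage parts of the rule, they were 317 of 808 (39.2%, 35.9 to 42.7) and 417 of 990 (42.1%, 39.0 to 45.3), a difference of 2.89 points with an interval that included 0 (-1.76 to 7.51). The excess in the library labelled KO lay in members with 1 resident gene: without any of Lyve1, Folr2, Cd163 and Cbr2 the cells numbered 218 and 233, and the difference over all cells turned to -0.139 points (-0.764 to 0.481). When the rule was applied to cells thinned to 1000 UMIs, the difference among macrophages was 6.08 points (1.22 to 10.9).

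Most members carried RNA of both Trem2 and Ms4a7. Trem2 and Ms4a7 were detected together in 65.0% (WT) and 69.5% (KO) of members, Trem2 alone in 12.3% and 13.2%, and Ms4a7 alone in 22.7% and 17.3%. Detection follows depth: the cells with both had medians of 6694 and 6392 UMIs, and those with Trem2 alone had 5136 and 4114. Apoe, the lipoprotein that exports lipid from macrophages, stood at 34010 (WT) and 29997 (KO) CPM in cells with both, at 6629 and 8896 CPM with Trem2 alone and at 11909 and 13023 CPM with Ms4a7 alone. Cells with both genes thus had the higher Apoe level in both libraries.

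A single resident gene was allowed, and 99 members (31.2%, 26.2 to 36.7) of the library labelled WT and 184 (44.1%, 39.3 to 49.0) of the library labelled KO had one. It was mostly Folr2, the folate receptor β gene of resident macrophages, found in 54 members (17.0%, 13.1 to 21.6) and 132 members (31.7%, 27.2 to 36.4). Cbr2 was the one in 32 and 38 members, Cd163 in 10 and 9, and Lyve1 in 3 and 5. The library labelled KO thus held the larger share of members with Folr2, while the shares with Cbr2, Cd163 and Lyve1 lay within each other's intervals.

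Among macrophages with Trem2 or Ms4a7, cells just inside the limit (1 resident gene) had 583.1 (WT) and 561.3 (KO) CPM of Trem2 and cells just outside (2 resident genes) had 377.8 and 390.9 CPM. Mrc1, the mannose receptor of resident macrophages, stood at 523.6 and 608.6 CPM inside the limit and at 1266, 1873 and 1877 CPM outside it (WT), and at 636.7 and 923.6 against 1484, 1842 and 2230 CPM (KO), with the largest step between 1 and 2 resident genes in both libraries. H2-Aa, a chain of MHC class II, went from 10538 to 1611 CPM and from 11207 to 2137 CPM between 0 and 4 resident genes. Gpnmb, a lipid-program glycoprotein, stood at 198.0 and 239.8 CPM inside the limit and 48.97 CPM just outside it (WT), and at 317.0 and 181.6 against 48.75 CPM (KO). Spp1, an extracellular phosphoprotein, was at 573.2 (WT) and 293.3 (KO) CPM just inside and 40.81 and 173.3 CPM just outside. These values describe cells that the same genes had sorted.

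**Figure D2:**
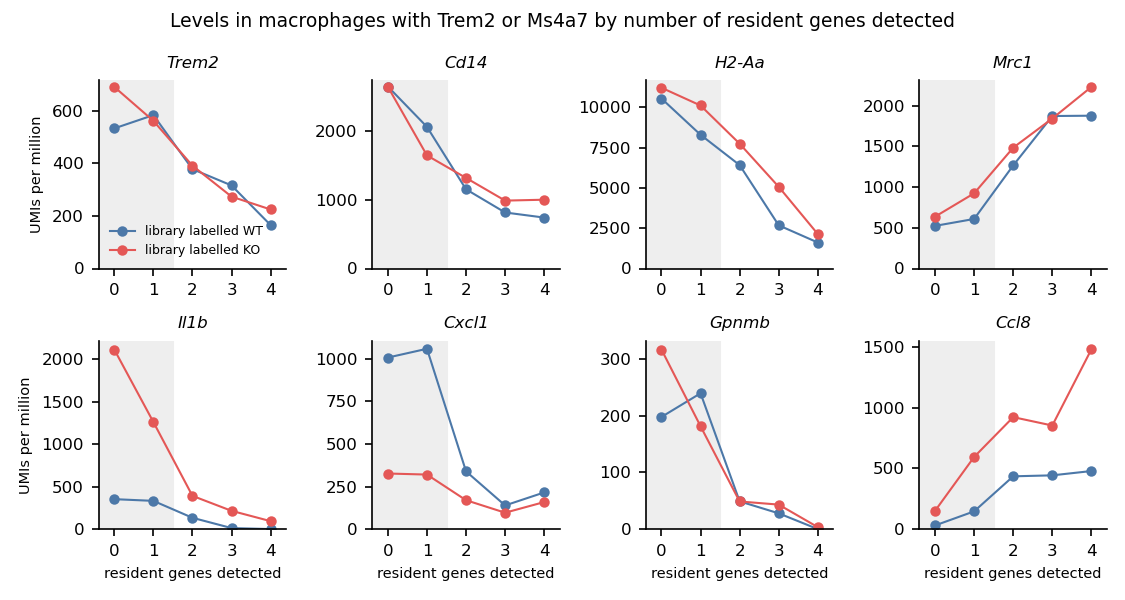
CPM of 8 genes in macrophages with Trem2 or Ms4a7, by the number of the 4 genes Lyve1, Folr2, Cd163 and Cbr2 detected in the cell, for each library; the grey band marks 0 or 1, the limit of the rule. Mrc1 was higher and H2-Aa lower at 4 resident genes than at 0, and the Il1b level of the library labelled KO lay above that of the library labelled WT at every step.

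The levels of 2 cytokine genes, Il1b and Cxcl1, moved along the same steps. Il1b, which encodes IL-1β, went from 352.1 CPM at 0 resident genes through 332.0, 132.9 and 11.9 to 0 CPM at 4 (WT), and from 2112 through 1260, 390.9 and 214.8 to 93.2 CPM (KO). Cxcl1, a neutrophil chemoattractant, stood at 1008 and 1060 CPM inside the limit and at 339.3 CPM just outside it (WT), against 326.6, 320.4 and 169.7 CPM (KO). Ccl8 ran the other way, from 29.98 to 478.4 CPM and from 150.6 to 1481 CPM. Members were thus the Il1b-rich and Ccl8-poor end of the Trem2 or Ms4a7 macrophages in both libraries.

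Members were compared with the 366 (WT) and 413 (KO) Lyve1-high macrophages, which met the same C1q and lineage rule with at least 2 resident genes. The rule chose this contrast, so its values are a description and nothing is read from their number. A further 125 and 160 cells met the C1q, lineage and resident gene limits without Trem2 or Ms4a7. These had medians of 1637 and 2133.5 UMIs, below those of members, and 655.0 and 2927 CPM of Il1b against 345.5 and 1737 CPM in members. Of 6521 genes with at least 50 UMIs in each library, 239 (3.67%) were at least 1.5-fold higher in members in both libraries and 652 (10.0%) were at least 1.5-fold lower. Among the genes that led were Ccl5, a T cell chemoattractant, at 139.3 and 98.9 CPM in members and 5.41 and 3.44 CPM in Lyve1-high cells, and Il7r, the interleukin 7 receptor, at 106.1 and 141.5 CPM against 6.89 and 9.02 CPM. Gpnmb followed, at 211.8 and 257.3 CPM against 29.04 and 37.4 CPM. Gpr35, the protease genes Mmp12 and Napsa, the survival genes Bcl2a1d and Bcl2a1a, the NF-kB inhibitor gene Tnip3 and Il1b complete the 10 highest. In Mmp12, 60.5% of the UMIs of the WT members came from 1 cell.

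Members held less RNA of further genes that the rule did not read. Of those named here, Cd209f, Cd209g, Cd209d, Fcna, C4b and Ccl24 were on the list of resident macrophage genes, and Mucl1, Enpep, Mmp9 and Ednrb were not. Mucl1 stood at 0.468 (WT) and 0.385 (KO) CPM in members and at 152.6 and 80.3 CPM in Lyve1-high cells, and the lectin gene Cd209f at 0.468 and 1.92 CPM against 156.5 and 100.9 CPM. Cd209g, Cd209d, the lectin Fcna, the peptidase Enpep, Mmp9, the complement gene C4b, the endothelin receptor Ednrb and the chemokine gene Ccl24 were the other 8 of the 10 lowest. Of 22 resident macrophage genes, 20 were at least 1.5-fold lower in each library (beside 22.4% and 15.4% of all genes), with medians of -2.11 (WT) and -1.59 (KO) on the log2 scale. The Trem2 lipid program went the other way in 13 of 24 genes in each library (beside 6.84% and 6.39% of all genes), with medians of 0.70 and 0.63. Among its higher genes were Spp1 (log2 ratios 3.37 and 1.92), Fabp5, a fatty acid carrier (2.61 and 1.60), and Lgals3 (1.87 and 1.26). The highest ratio of the list in KO, 4.61, was that of another gene. Apoe (0.11 and 0.21) and Abca1, a cholesterol exporter (-0.07 and 0.19), were at like levels, and the fatty acid receptor gene Cd36 was lower (-0.74 and -0.82). FAP marker RNA stood beside this contrast: its summed level over 8 markers was 784.0 and 1394 CPM in members and 3034 and 747.1 CPM in Lyve1-high cells, and its part in the result was not tested.

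Members were also set beside the Plac8 Lyz2 cells, 26 and 28 cells with Plac8, Lyz2 and at most 1 C1q gene. The 10 genes ranked lowest in members here were Plac8, Serping1, Nid1, Clec3b, Pi16, Col3a1, Igfbp5, Meg3, Igfbp6 and Dcn. Col3a1 and Dcn are FAP markers, so the group also held stromal RNA and is not a clean set of monocytes. The part of that RNA in the values below was not tested. Pf4, a platelet-type chemokine of macrophages, stood at 1519 and 1994 CPM in members and 9.95 and 14.3 CPM in Plac8 Lyz2 cells. Apoe followed at 26449 and 25863 CPM against 964.8 and 842.2 CPM, and the classical monocyte gene Ly6c2 stood at 1.87 and 1.15 CPM against 611.7 and 76.1 CPM. For Il1b the order differed between the libraries, at 345.5 against 885.2 CPM in WT and 1737 against 999.2 CPM in KO. The level of Il1b in members was thus below that of the Plac8 Lyz2 cells in one library and above it in the other.

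Members were not uniform in the genes Ccr2, the receptor that brings monocytes into tissue, and Gpnmb. After every cell was thinned to 1000 UMIs, which left 307 (WT) and 404 (KO) members, Ccr2 was detected in 31 cells (10.1%, 6.97 to 14.03) and 64 cells (15.8%, 12.4 to 19.8), and Gpnmb in 18 (5.86%, 3.51 to 9.11) and 42 (10.4%, 7.60 to 13.8). No thinned cell held a UMI of both, which allows a share of up to 1.19% and 0.909% of cells with UMIs of both at 1000 UMIs and limits no share of cells that express both. Without thinning, 7 and 18 members held both, of 100 and 155 with Ccr2 and 68 and 111 with Gpnmb. The remaining 258 and 298 thinned cells held neither, so for most members neither gene was detected at this depth.

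Cells with Gpnmb carried the lipid and lysosome genes. All UMIs of the cells picked after thinning were compared, and of 1118 genes, 96 (8.59%) were at least 1.5-fold higher in Gpnmb cells than in Ccr2 cells in both libraries and 89 (7.96%) at least 1.5-fold lower. Spp1 stood at 2639 (WT) and 1052 (KO) CPM in Gpnmb cells and 107.6 and 94.8 CPM in Ccr2 cells, and Fabp5 at 1637 and 1946 CPM against 132.4 and 167.9 CPM. The lysosomal proteases Ctsd (log2 ratios 2.24 and 2.22) and Ctsl (2.27 and 1.97), the acid lipase Lipa (1.53 and 2.01), Apoe (1.41 and 1.75) and Trem2 itself (2.31 and 1.67) were higher too. Of 17 tested genes of the Trem2 lipid program 14 were higher in both libraries and 0 lower, with medians of 1.22 and 1.18, and of 26 lysosome genes 15 were higher and 0 lower, with medians of 0.83 and 0.84. Gpnmb, on which the cells were picked, and Trem2, a gene of the rule, were left out of these counts.

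Another set of genes was higher in Ccr2 cells than in Gpnmb cells. Retnla, a secreted protein of alternatively activated macrophages, stood at 6336 (WT) and 1514 (KO) CPM in Ccr2 cells and at 0 and 3.10 CPM in Gpnmb cells. The lectin gene Mgl2 (log2 ratios of Gpnmb over Ccr2 cells -2.93 and -3.78), the interferon-induced chemokine Cxcl10 (-3.63 and -2.87), the transcription factor gene Klf2 (-2.27 and -2.40), the heat-shock gene Hspa1b (-2.61 and -1.59) and Egr1 (-1.62 and -1.90) were higher in Ccr2 cells as well. Of 25 immediate-early and heat-shock genes, 15 were at least 1.5-fold lower in Gpnmb cells in both libraries and 0 higher, with medians of -0.79 and -0.99. H2-Aa was at 10643 and 11485 CPM in Ccr2 cells and 4974 and 8360 CPM in Gpnmb cells. Members with neither gene held 10139 and 10996 CPM of H2-Aa, near the Ccr2 cells. For Hspa1b, Ccr2 cells stood at 2251 (WT) and 7116 (KO) CPM and members with neither gene at 2307 and 4005 CPM. Retnla, Mgl2, Cxcl10, Klf2 and Egr1 were higher in Ccr2 cells than in members with neither gene in both libraries. Il1b did not follow this axis: it stood at 422.1 and 1711 CPM in Ccr2 cells, at 393.3 and 1499 CPM in Gpnmb cells and at 331.4 and 1786 CPM in the others.

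**Figure D3:**
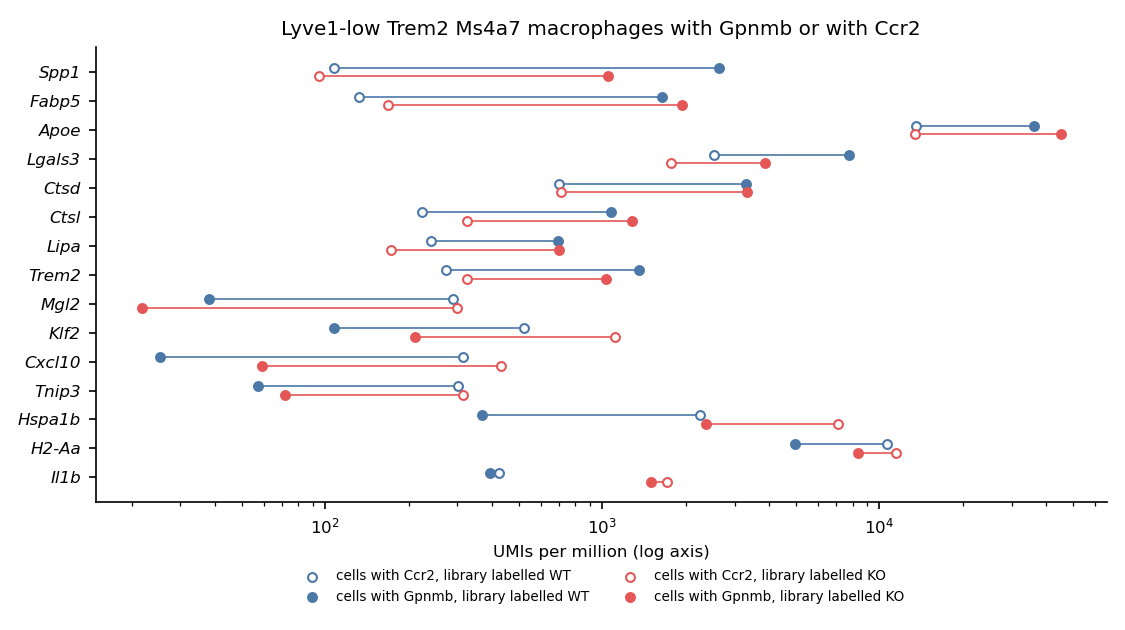
CPM (log axis) of 15 genes in Lyve1-low Trem2 Ms4a7 macrophages with Gpnmb (filled) and with Ccr2 (open) after thinning, each pair joined by a line for each library. Spp1, Fabp5, Apoe and lysosomal genes were higher in the Gpnmb cells of both libraries, Mgl2, Klf2, Cxcl10 and Hspa1b were higher in the Ccr2 cells, and for Il1b the libraries lay farther apart than the cells.

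Between the libraries, 480 of 6656 genes (7.21%) were at least 1.5-fold higher in the members of the library labelled KO and 430 (6.46%) at least 1.5-fold lower, with a median log2 ratio over all genes of 0.01. Of 24 genes named by the interval end nearest to 0, 12 had at least 50% of the UMIs of their higher library in 1 cell. The genes that many cells carried were Il1b, Hpgd, Ccl8, Tmem267 and Mid1 on the higher side and Tpm3-rs7, Nmnat1 and Cxcl1 on the lower side. None of these differences has a replicate. The counts of list genes called in members, given below, are to be read beside the shares of all genes, 7.21% higher and 6.46% lower.

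Il1b was the most abundant of the 24 named genes. The members held 739 Il1b UMIs (345.5 CPM, 122 cells with a UMI) in WT and 4515 (1737 CPM, 219 cells) in KO, a log2 ratio of 2.33 (2.22 to 2.44). After thinning, 18.9% and 36.6% of members held an Il1b UMI (38.5% and 52.5% unthinned), against 0.218% and 0.337% of Pdgfra cells. The part of free RNA in the Il1b level of members was not tested. No single cell carried the level, since the highest held 7.98% and 3.74% of the Il1b UMIs. The ratio was like it in Lyve1-high macrophages (2.05) and smaller outside macrophages (0.94). Among members with neither Ccr2 nor Gpnmb after thinning, Il1b was found in 18.6% (14.1 to 23.9) in WT and 37.3% (31.7 to 43.0) in KO, and among those with no resident gene in 20.2% (15.0 to 26.2) and 42.4% (35.9 to 49.2), so the intervals of these subsets lay apart. They overlapped in Ccr2 cells, at 12.9% (3.63 to 29.8) and 32.8% (21.6 to 45.7), in members with 1 resident gene, at 16.0% (9.22 to 25.0) and 29.4% (22.9 to 36.7), and in Gpnmb cells, at 33.3% (13.3 to 59.0) and 38.1% (23.6 to 54.4).

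Other cytokine genes did not share the size of that difference. Il1a, the other IL-1 agonist gene, stood at 33.7 (WT) and 51.5 (KO) CPM, a log2 ratio of 0.61 (0.19 to 1.05), and Il6 at 14.02 and 26.54 CPM, a ratio of 0.92 (0.28 to 1.59). Outside macrophages Il6 stood higher, at 113.5 and 350 CPM, with a ratio of 1.63. The part of free RNA in the Il6 level of members was not tested. Tnf was at 418.4 and 389.6 CPM (-0.10, -0.23 to 0.03), Il18 at 29.0 and 31.5 CPM (0.12, -0.37 to 0.62) and Osm at 104.7 and 111.5 CPM (0.09, -0.17 to 0.35). Il10, the anti-inflammatory cytokine, was at 237.0 and 133.1 CPM (-0.83, -1.03 to -0.63). Of 26 cytokine and receptor genes 3 were higher by 1.5-fold (Il1b, Il6, Il1a) and 1 lower (Il10), with a median of 0.19. Of 14 inflammasome and gasdermin genes Il1b alone passed 1.5-fold. Nlrp3 (0.22, 0.10 to 0.35), Pycard, the inflammasome adaptor (0.27, 0.00 to 0.55), Casp1, which cleaves pro-IL-1β (0.01, -0.41 to 0.43), and Gsdmd, the pore former of classical pyroptosis (-0.20, -0.77 to 0.37), lay within 1.5-fold.

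Cxcl1 and Ccl8 were the chemokine genes named by their interval ends. Cxcl1 had 2193 UMIs (1025 CPM, 120 cells) in WT and 842 (323.9 CPM, 90 cells) in KO, a log2 ratio of -1.66 (-1.78 to -1.55) that was -0.70 in Lyve1-high macrophages and 0.74 outside macrophages. Cxcl1 is abundant in Pdgfra cells, 46.9% and 57.7% of which held a UMI after thinning, more than the 22.5% and 9.41% of members, and the part of free RNA in the level of members was not tested. Ccl8, a chemokine gene of resident macrophages, was at 146 UMIs (68.3 CPM, 24 cells) and 900 UMIs (346.2 CPM, 98 cells), a ratio of 2.34 (2.09 to 2.60). That ratio was 1.28 in Lyve1-high macrophages, 28.8% and 14.6% of the Ccl8 UMIs lay in 1 cell of each library, and the ratio was 1.41 where members were chosen after thinning. Of 19 chemokine genes 3 were higher and 5 lower by 1.5-fold, with a median of 0.12.

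Ccl2, Ccl7, Ccl3 and Ccl4, which attract monocytes and other leukocytes, lay within 1.5-fold. Ccl2 was at 753.1 and 924.7 CPM (0.30), Ccl7 at 556.8 and 833.1 CPM (0.58), Ccl3 at a ratio of 0.33 and Ccl4 at 0.12. Cxcl2, the most abundant chemokine gene of members at 9589 and 7264 CPM, had a ratio of -0.40 (-0.43 to -0.37), and its relative Cxcl3 stood at 129.0 and 70.0 CPM (-0.88, -1.16 to -0.61). The neutrophil-attracting genes Cxcl1, Cxcl2 and Cxcl3 thus all had ratios below 0, those of Cxcl1 and Cxcl3 beyond 1.5-fold. Cxcl9, induced by interferon-γ, had a ratio of 1.20, with 57.7% of its KO UMIs in 1 cell. Of 8 chemokine receptor genes none passed 1.5-fold, and Ccr2 stood at 161.7 and 197.3 CPM (0.29, 0.09 to 0.49).

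Hpgd, which encodes the enzyme that inactivates prostaglandins, had the highest ratio of the genes carried by many cells. It was found in 9 members with 11 UMIs (5.14 CPM) in WT and in 166 members with 309 UMIs (118.9 CPM) in KO, a log2 ratio of 4.53 (3.67 to 5.55). The ratio was 1.21 in Lyve1-high macrophages, where 25.7% and 49.2% of cells already held an Hpgd UMI, and 0.80 outside macrophages. Cd209a, a lectin gene that marks dendritic cells derived from monocytes, had 3 UMIs in 3 cells and 81 UMIs in 21 cells (4.47, 2.88 to 6.78). The summed level of 10 dendritic cell markers, Cd209a among them, was 79.0 and 95.8 CPM in members, and its part in the result was not tested. Tmem267, a membrane protein gene, had 6 and 71 UMIs (3.28, 2.09 to 4.78), and Mid1, a ubiquitin ligase gene, 15 and 90 (2.30, 1.51 to 3.20). Mid1 lay apart by 2.61 in Lyve1-high macrophages and 1.68 outside macrophages as well.

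On the lower side, Tpm3-rs7, a tropomyosin 3-related sequence, had 717 UMIs (335.2 CPM) in WT and 22 (8.46 CPM) in KO, a log2 ratio of -5.31 (-5.99 to -4.70). It was as far apart in Lyve1-high macrophages (-5.03) and outside macrophages (-5.60), so the difference was not particular to members. Tpm3-rs7 is named for its likeness to Tpm3, with which it can share reads, and its value is uncertain for that reason. Nmnat1, an NAD-synthesis enzyme gene, likewise stood at -3.42 in members (53 and 6 UMIs), -3.74 in Lyve1-high cells and -3.05 outside macrophages. F10, the coagulation factor X gene, was found with 103 UMIs in 18 members and 15 UMIs in 6 (-3.06, -3.95 to -2.27), and at -1.88 in members with both Trem2 and Ms4a7, with -4.20 in Lyve1-high macrophages and -0.59 outside macrophages.

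**Figure D4:**
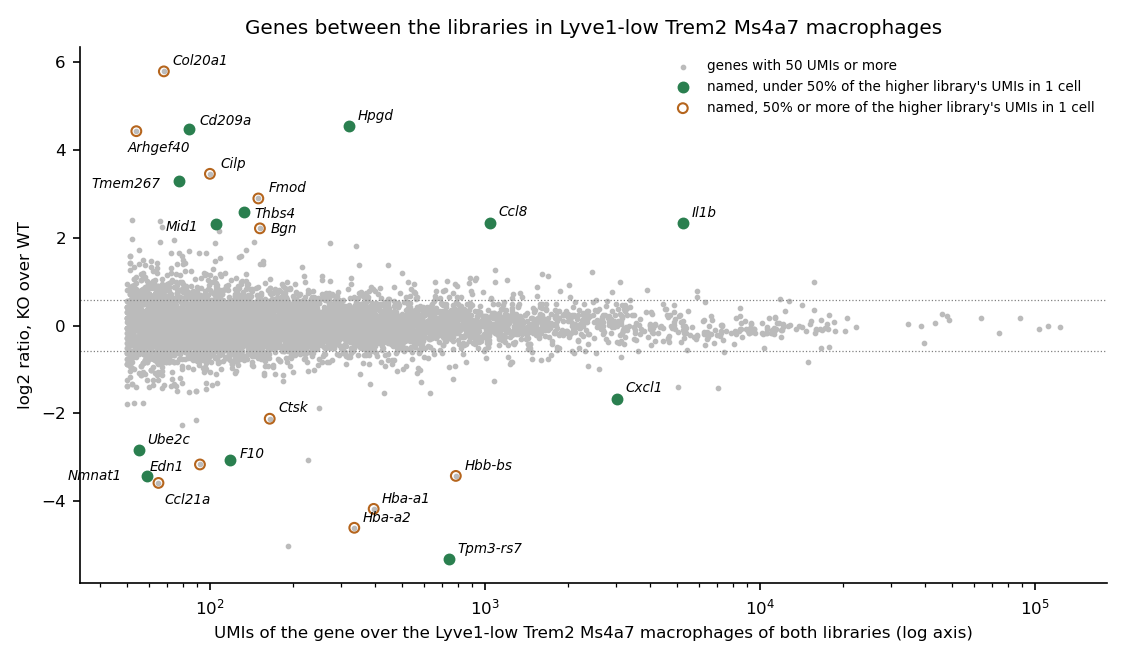
Log2 ratio of CPM, library labelled KO over library labelled WT, against the UMIs of each gene in Lyve1-low Trem2 Ms4a7 macrophages (log axis), for 6656 genes with at least 50 UMIs; dotted lines mark 1.5-fold. Filled green points are named genes spread over several cells and open brown circles are named genes with at least 50% of the UMIs of the higher library in 1 cell; Il1b and Cxcl1 stand apart at high UMI counts.

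The other 14 of the 24 named genes rested on few cells, and many of them are genes of other cell types. Hemoglobin genes accounted for 3 of them: Hba-a1 had 369 and 25 UMIs, Hba-a2 319 and 16, and Hbb-bs 704 and 80, and 98.6%, 95.9% and 93.8% of the WT UMIs of these genes lay in 1 cell. The lymphatic chemokine Ccl21a (59 and 6 UMIs), the endothelin gene Edn1 (81 and 11) and the protease gene Ctsk (129 and 36) had 89.8%, 74.1% and 81.4% in 1 WT cell. Of the higher genes, Col20a1, Arhgef40, Cilp, Fmod and Bgn had 95.5%, 61.5%, 58.1%, 81.5% and 56.6% of their KO UMIs in 1 cell, and Thbs4 had 41.9%. The cell-cycle gene Ube2c had 47 and 8 UMIs, 42.6% of the WT UMIs in 1 cell. Without the highest cell of each library, the ratios of Cilp, Thbs4, Bgn and Fmod were 2.42, 2.11, 1.13 and 0.56.

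RNA of other cell types was low in members and uneven. The summed level of the 8 FAP markers was 784.0 CPM (WT) and 1394 CPM (KO), with 26.5% and 55.9% of it in the 5 highest cells, and 6 of the 8 were at least 1.5-fold higher in the library labelled KO. In Lyve1-high macrophages all 8 were at least 1.5-fold lower in the library labelled KO, where 5.03% of all genes tested were higher and 9.33% lower between the libraries. Red cell markers summed to 671.3 and 53.9 CPM, with 95.8% of the WT UMIs in 5 cells. The other lists ranged from 16.2 CPM (12 T, NK and B cell markers, KO, 6 of them at 0) to 522.0 CPM (8 Schwann and mast cell markers, KO, 3 at 0). The 10 muscle markers summed to 487.6 and 314.6 CPM, and the 8 endothelial markers to 202.0 and 186.6 CPM. The 8 neutrophil markers summed to 41.1 and 54.2 CPM, with 4 and 2 of them at 0, and the 8 mural cell markers to 39.7 and 33.1 CPM. In each library 5 members had 1% or more of their UMIs from such a list.

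Of 17 resident macrophage genes tested in members, 6 were at least 1.5-fold higher in KO (beside 7.21% of all genes) and 0 lower (beside 6.46%). Their median log2 ratio was 0.47. The 22 genes of the list tested in Lyve1-high macrophages gave 0 higher, 5 lower (beside the 9.33% of all genes) and a median of -0.08. Ccl24, an eosinophil chemoattractant, was at 28.1 and 61.2 CPM (1.12, 0.69 to 1.58), Gas6, a bridge between dying cells and the receptors that engulf them, at 108.5 and 209.6 CPM (0.95, 0.73 to 1.18), and the endocytic adaptor gene Dab2 at 286.6 and 543.1 CPM (0.92, 0.78 to 1.06). Igf1, a growth factor for muscle, was at 134.2 and 232.3 CPM (0.79, 0.59 to 1.0) and the lectin gene Clec10a at 57.5 and 94.6 CPM (0.72, 0.40 to 1.04). Selenop (0.47), Mrc1 (0.47), Maf (0.39) and Pf4 (0.39) lay above 0 and within 1.5-fold. The share of members with 1 resident gene, mostly Folr2, was also larger in this library (44.1% against 31.2%), and the median of the list was 0.33 in members with no resident gene and 0.23 where members were chosen after thinning.

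**Figure D5:**
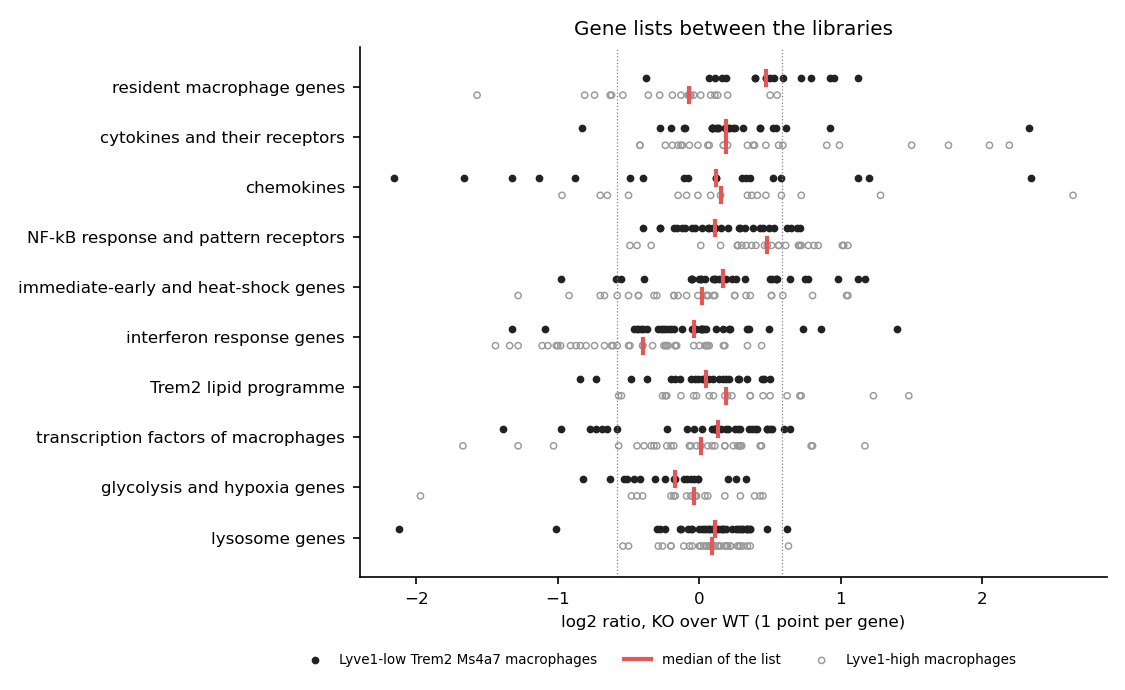
Log2 ratio, library labelled KO over library labelled WT, of the genes with at least 50 UMIs in 10 gene lists (1 point per gene), for Lyve1-low Trem2 Ms4a7 macrophages (filled) and Lyve1-high macrophages (open); red bars are medians and dotted lines mark 1.5-fold. The resident macrophage genes had a median of 0.47 in the former and -0.08 in the latter, and the interferon response genes -0.03 and -0.40.

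The Trem2 lipid program stood at nearly the same level in both libraries. Of its 24 genes 0 were higher and 2 lower by 1.5-fold, with a median of 0.05. Apoe was at 26449 (WT) and 25863 (KO) CPM, Trem2 had a ratio of 0.21, Fabp5 0.21, Gpnmb 0.28, Lpl, the lipoprotein lipase, 0.27, and Spp1 0.03, with 37.1% of the WT Spp1 UMIs in 1 cell. Lgals3, a galectin of phagocytes, was the lowest at 4156 and 2324 CPM (-0.84, -0.89 to -0.79). In Lyve1-high macrophages 5 of 22 genes of this program were higher, beside 5.03% of all genes, and 0 lower, with a median of 0.19. The lysosome list showed 1 higher and 2 lower of 39 (median 0.11), with Acp5, an acid phosphatase, at 170.2 and 84.2 CPM (-1.01).

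Cebpb and Klf4 were the lowest of the transcription factor genes. Cebpb, a driver of inflammatory and repair genes in macrophages, was at 1610 (WT) and 615.0 (KO) CPM, a log2 ratio of -1.39 (-1.47 to -1.30), and 69.4% and 43.8% of thinned members held a UMI of it. The ratio was -1.03 in Lyve1-high cells and -1.62 outside macrophages. Klf4, a regulator of alternative activation, was at 755.0 and 382.7 CPM (-0.98, -1.10 to -0.87), with -1.28 in Lyve1-high cells and -0.52 outside macrophages. Of 32 transcription factor genes 2 were higher and 6 lower, with a median of 0.13. Bhlhe40 (-0.77) and Runx3 (-0.69) were also lower in members, and Spi1, which encodes PU.1, lay just inside 1.5-fold (-0.58, -0.70 to -0.45).

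The heat-shock genes Hspa1b, Dnajb1 and Hsph1 were higher in KO both in members and outside macrophages. In members Hspa1b was at 2159 and 4253 CPM (0.98, 0.93 to 1.03), the co-chaperone genes Dnajb1 at 201.0 and 452.7 CPM (1.17) and Hsph1 at 216.4 and 472.0 CPM (1.12). Outside macrophages their ratios were 1.28, 1.17 and 1.29. Of the 30 immediate-early and heat-shock genes 6 were higher and 2 lower in members, with a median of 0.17, against 4 higher and 4 lower in Lyve1-high macrophages, with a median of 0.02. The other higher genes were the immediate-early genes Nr4a1 (0.77), Fosl2 (0.75) and Btg2 (0.64), and the lower ones were Fosb (-0.59) and Klf4. Jun stood at 0.01, Fos at -0.05 and Egr1 at 0.14 in members and at -0.92, -0.70 and -0.43 in Lyve1-high macrophages.

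Of 29 NF-kB response and pattern receptor genes 4 were higher and 0 lower (Rela 0.62, Birc3 0.65, Myd88 0.69 and Tlr7 0.71), with a median of 0.11. In Lyve1-high macrophages 10 of 27 were higher, beside 5.03% of all genes. Nfkbia, the NF-kB feedback inhibitor, was at 1235 and 1015 CPM (-0.28). Of 34 interferon response genes 3 were higher and 2 lower, with a median of -0.03, against 0 higher and 16 lower of 39 in Lyve1-high macrophages, beside 9.33% of all genes lower there. Irf7, a transcription factor of the response, was among the lower in members (-1.32, -1.64 to -1.0), and Ifit1, an interferon-induced RNA-binding protein, was at 17.3 and 45.8 CPM (1.40, 0.86 to 1.98).

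Growth factor and matrix genes held 8 higher and 3 lower of 32, with a median of 0.15. Areg, an epidermal growth factor receptor ligand, was at 23.4 and 85.8 CPM (1.88), Vegfa, the vessel growth factor, at 36.9 and 75.0 CPM (1.02), and Timp1, a protease inhibitor, at 8.88 and 32.7 CPM (1.88), with 42.0% of the WT Areg UMIs in 1 cell. Mmp19 was at 334.2 and 139.2 CPM (-1.26, -1.45 to -1.08) and Gdf15, a stress-induced cytokine, at 675.5 and 359.6 CPM (-0.91, -1.03 to -0.79). Gdf15 was at 0.00 in Lyve1-high macrophages and -1.70 outside macrophages. The matrix gene Sparc (1.07) moved with the FAP markers given above.

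MHC class II genes were level. H2-Aa was at 9797 and 10722 CPM (0.13) and Cd74, the invariant chain, at 23542 and 23507 CPM (0.00). Of 20 antigen presentation genes 2 were higher and 0 lower, with a median of 0.12, the costimulatory gene Cd40 at 56.1 and 86.5 CPM (0.63) and Cd80 at 11.7 and 21.9 CPM (0.91). Of 20 heme and iron genes 3 were higher and 0 lower, namely the metallothionein genes Mt1 (0.61) and Mt2 (0.72) and the antioxidant gene Srxn1 (0.62), and the heme-degrading enzyme gene Hmox1 was at 2693 and 2719 CPM.

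The medians of the remaining lists lay between -0.17 and 0.19. Phagocytosis and Fc receptor genes gave 2 higher and 1 lower of 27 (median 0.19), with the receptor tyrosine kinase genes Mertk (0.14) and Axl (0.11) within 1.5-fold. Complement genes gave 3 and 2 of 11 (-0.07), ranging from -0.77 for C3 to 1.48 for Serping1. Glycolysis and hypoxia genes gave 0 and 2 of 19 (-0.17), cell-cycle genes 0 and 2 of 10 (-0.15), and monocyte-derived genes 1 and 1 of 11 (-0.12). Stmn1, a tubulin-binding protein of dividing cells, was at 146.3 and 73.9 CPM (-0.99), with 20.8% of the WT UMIs in 1 cell.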

How the data were processed

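The authors deposited 1 table of 19169 genes by 13432 cells holding natural log values, log(1 + UMIs scaled to 10000 per cell). Barcode endings assign cells to libraries. Per the labels, Cell Ranger 2.1.1 and the mm10 build were used; the study's methods name a later Cell Ranger, Seurat, removal of doublets with DoubletFinder and of cells with over 10% mitochondrial genes. The table lists 0 mitochondrial genes. Its number of cells equals the one in the study's results and is below the one in its methods.

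Whole UMIs were recovered from the deposited log values, since each cell's lowest values step by 1 UMI. The farthest value lay 0.256 from a whole UMI, and 500 of 500 simulated cells were recovered. UMIs were summed per library and given as CPM with exact Poisson intervals, shares with exact binomial (Clopper-Pearson) intervals and ratios with exact binomial intervals. Genes needed 50 UMIs over both groups, and called means 1.5-fold. A group at 0 was set to 3 UMIs in a ratio. On simulated data 199 of 200 changed genes were recovered for the comparison between libraries. Shares of cells were taken after thinning to 1000 UMIs, which left out 10 (WT) and 13 (KO) members. Lyve1-high macrophages had at least 2 resident genes; Plac8 Lyz2 cells had Plac8 and Lyz2, at most 1 C1q gene, not both S100a8 and S100a9, and none of Flt3, Pdgfra, Cdh5, Cd3e, Cd79a and Ncr1; Pdgfra cells had Pdgfra without Ptprc and Cdh5. Doublets were called with Scrublet (101 and 109 cells).

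Genes named between libraries were the 12 highest and 12 lowest by the interval end nearest 0, and between groups the 10 highest and 10 lowest by that end in the library where it lay nearer 0, besides genes of the lists; predicted genes, ribosomal protein genes and the genes of the rule were left out of the ranking. Values of a few genes of the lists and of the ranking are not reported here. The members and lists were chosen with earlier results of these data known. Comparisons of Gpnmb with Ccr2 cells and by number of resident genes, and the alternatives without the highest cell and without cells holding 1% or more of other cell types' markers, were chosen after seeing the data. Alternatives changed the scaling, the UMI minimum (1 or 200), depth, doublets and the rule's limits. No per-sample column was left unmapped (0). Python 3.11.15, numpy 2.4.6, scipy 1.17.1, pandas 2.3.3, scanpy 1.11.5 and matplotlib 3.10.9 were used.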

Additional observations from a re-analysis of the deposited data

Results flagged for a closer look

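In 11 genes the ratio between the libraries passed 1.5-fold in opposite directions in Lyve1-low Trem2 Ms4a7 and in Lyve1-high macrophages. With 1 library per genotype the difference between these ratios was not tested. In the members, Il10 had a log2 ratio (KO over WT) of -0.83 against 1.5 in Lyve1-high macrophages, Runx3 -0.69 against 0.80, Ifit1 1.40 against -0.61, and Adamts1, a matrix protease gene, 0.90 against -0.63. Without the highest cell of each library these 4 stood at -0.77, -0.72, 1.36 and 0.72 in the members. Outside macrophages Adamts1 stood at 930.8 (WT) and 904.6 (KO) CPM and Ifit1 at 273.8 and 199.8 CPM. The part of free RNA in their levels in macrophages was not tested. The other 7 are genes of stromal or red cells: Bgn 2.21 against -1.51, Cilp 3.45 against -1.63, Fmod 2.89 against -4.04, Thbs4 2.59 against -2.89, Sparc 1.07 against -1.97, Serping1 1.48 against -1.70 and Hbb-bs -3.42 against 0.65. The summed FAP markers moved with the stromal genes and with Adamts1, being 784.0 and 1394 CPM in the members and 3034 and 747.1 CPM in Lyve1-high macrophages (WT and KO).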

How the results depend on the processing

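With no resident gene allowed, the difference in the share of all cells between the libraries turned to -0.139 percentage points (from 0.903). The difference among macrophages turned to -3.45 (from 2.89). This setting left out the members with 1 resident gene, 31.2% of those in WT (99 cells) and 44.1% of those in KO (184 cells). Genes at least 1.5-fold higher and lower numbered 130 and 110 with at least 200 UMIs and 2781 and 2856 with no filter beyond 1 UMI, against 480 and 430 of 6656. The UMI minimum also sets how many genes are tested, so these counts have different denominators and are not comparable as they stand. The other 9 alternatives moved neither count by over 1.5 times. For the named genes 163 alternatives stayed within the counting interval, 43 moved beyond it and 10 turned the sign: Ccl21a to 0.72 with no resident gene allowed, Cilp to -0.76, Fmod to -0.09, Thbs4 to -0.16, Hba-a2 to 0.03, Hba-a1 to 2.05 and Hbb-bs to 0.55 without cells rich in other cell types' markers, and Col20a1 to -0.28, Hba-a1 to 1.92 and Hbb-bs to 0.39 without the highest cell of each library. Il1b ranged from 2.09 to 2.58, Hpgd from 3.11 to 5.12, Ccl8 from 1.41 to 2.61, Ube2c from -3.04 to -0.32 and Cxcl1 from -1.75 to -1.49. Medians of the chemokine (-0.18 to 0.31), cell-cycle (-0.24 to 0.07), complement (-0.12 to 0.16), monocyte-derived (-0.22 to 0.14) and heme and iron genes (-0.02 to 0.23) took both signs; that of resident macrophage genes ranged from 0.23 to 0.49. No paired analysis was possible because there was 1 library per genotype. Genes with few UMIs, Gsdme among them, could not be resolved at this depth.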
